A study of Mus musculus with 9 samples.

Results

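The 8 genes described here are Kctd11, Klhl3, Srd5a1, Itpk1, Cd109, Chrna1, Tmco4 and Dixdc1. They were taken out of 46517 mouse genes as lying outside known hypoxia lists, which was checked here only against 66 textbook HIF targets. The other reason was that their RNA was far higher in small intestinal organoids that overexpressed HIF2. They were therefore selected on measured values of these same samples, and their HIF2 values, calls and ranks are given as a description and are no independent test. RNA was sequenced from wild-type duodenal organoids of C57BL/6J mice that had been transduced with 1 of 3 adenoviruses. Ad-GFP, the control, carried green fluorescent protein. Ad-hHIF2 and Ad-hHIF1 carried human HIF2 and human HIF1, each with both oxygen-sensing prolines replaced by alanine so that the protein escaped degradation. Each group held 3 samples, numbered 1, 3 and 4 by the labels and described as biological replicates by the study. In all 3 groups the cells received 50 viral particles per cell and were kept for about 72 hours in 5% oxygen, in medium conditioned with Wnt3a, R-spondin 3 and noggin that also held an inhibitor of the TGF-beta receptor kinase. The model is a transient, strong overexpression of a human protein from a viral promoter, in organoids of 1 mouse strain. The study describes the culture as enriched for intestinal stem cells.

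HIF2, encoded by Epas1, is 1 of the oxygen-regulated alpha subunits that pair with ARNT and bind hypoxia response elements with a short core. In the intestinal epithelium it is best known for driving iron uptake genes, and it shares only a part of its targets with HIF1, the regulator of glycolytic genes. The members have no common textbook pathway. Kctd11 and Klhl3 are adaptors that bring substrates to the CUL3 ubiquitin ligase, of histone deacetylase in the Hedgehog pathway and of WNK kinases in salt transport, respectively. Srd5a1 encodes steroid 5-alpha-reductase type 1 and Itpk1 a kinase of inositol phosphates. Cd109 encodes a GPI-anchored co-receptor that restrains TGF-beta signalling, Chrna1 the alpha subunit of the muscle acetylcholine receptor, and Tmco4 a transmembrane protein whose function is little known. Dixdc1 encodes a DIX domain protein that binds Dishevelled and Axin in Wnt signalling.

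The starts of the genes are shown first because HIF proteins bind the core letters ACGTG and GCGTG. RefSeq windows of GRCm38.p6, which reach from 250 bases before to 50 bases after a transcript start, were at hand for 7 of the 8 members, and for Cd109 there was no entry. At least 1 core on either strand was found in 5 of these 7 genes (71.4%), against 46.7% of all 27025 genes with a window. Kctd11 and Klhl3 had none in their windows. The Kctd11 window, chr11:69880936-69881235, lies within its annotated GENCODE transcript. The bases upstream of that transcript's start were therefore not searched. The sequences below are the upstream parts of 5 windows that hold a core, cut where a GENCODE transcript begins, written 5′ to 3′ on the strand of the gene with the cores in capitals. Cores read on the opposite strand appear as CACGT or CACGC. They come from chr2:73580339-73580588 (minus strand, Chrna1), chr13:69611464-69611713 (minus strand, Srd5a1), chr4:138972655-138972887 (plus strand, Tmco4, the second of its 2 windows), chr12:102704931-102705119 (minus strand, Itpk1) and chr9:50728068-50728234 (minus strand, Dixdc1, the window at the start of its longer coding transcripts, which lies within the gene).
Chrna1: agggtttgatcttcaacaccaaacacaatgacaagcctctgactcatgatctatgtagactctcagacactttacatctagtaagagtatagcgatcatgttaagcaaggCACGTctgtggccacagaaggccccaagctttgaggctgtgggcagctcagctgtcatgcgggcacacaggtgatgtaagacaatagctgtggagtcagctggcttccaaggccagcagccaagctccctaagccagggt
Srd5a1: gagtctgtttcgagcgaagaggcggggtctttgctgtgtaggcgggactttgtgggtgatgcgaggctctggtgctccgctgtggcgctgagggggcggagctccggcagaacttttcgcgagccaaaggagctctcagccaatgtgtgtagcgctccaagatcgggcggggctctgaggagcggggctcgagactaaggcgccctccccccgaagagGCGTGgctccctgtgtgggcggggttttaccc
Tmco4: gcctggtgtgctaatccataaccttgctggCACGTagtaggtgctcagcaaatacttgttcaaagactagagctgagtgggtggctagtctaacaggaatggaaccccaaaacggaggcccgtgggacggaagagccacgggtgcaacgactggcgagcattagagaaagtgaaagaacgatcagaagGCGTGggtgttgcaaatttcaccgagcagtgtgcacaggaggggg
Itpk1: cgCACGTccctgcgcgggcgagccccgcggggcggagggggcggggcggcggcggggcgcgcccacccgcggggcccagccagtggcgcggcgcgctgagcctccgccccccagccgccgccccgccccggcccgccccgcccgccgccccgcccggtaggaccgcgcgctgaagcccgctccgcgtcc
Dixdc1: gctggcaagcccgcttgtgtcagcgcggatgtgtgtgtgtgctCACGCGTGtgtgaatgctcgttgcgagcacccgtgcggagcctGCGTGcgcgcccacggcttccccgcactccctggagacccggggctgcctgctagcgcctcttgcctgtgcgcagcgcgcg
Chrna1 had a single core in its window, at position -140 from the transcript start, in a window of 54.7% G and C over the 300 bases. Srd5a1 also had a single core, at position -32. The Itpk1 window was 85.3% G and C and held 3 cores, of which the 2 nearest the start lie past the part shown. In Dixdc1 the 3 cores of this window included an overlapping pair at positions -207 and -204, and the window at its other start held none. A match of 5 letters is a description of the sequence, and binding was not measured here.

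The libraries held 21722618 to 51119041 expected counts, the fractional read counts that RSEM assigns to genes. Levels are given as CPM, the count scaled to the TMM-adjusted library size. Reads assigned to Epas1 were 620 to 765 CPM in the Ad-hHIF2 samples and 1.44 to 2.99 CPM in the other 6, and reads assigned to Hif1a were 305 to 312 CPM in Ad-hHIF1 against 196 to 246 CPM elsewhere, which includes any human transgene reads that match the mouse genes. The 8 epithelial markers summed to 3170 to 3868 CPM in every sample. In Ad-GFP the means were 1140 CPM for Krt18, 1048 for Krt8, 899 for Krt19, 215 for Cdh1 and 36.3 for Krt20. Vil1 (4.29), Epcam (2.89) and Cldn7 (1.95) were near the stromal markers Pdgfra (3.88), Col3a1 (3.63) and Col1a1 (3.06). None of the 8 was called under HIF2, with Epcam at -0.81 (adjusted p = 0.0472, edgeR). The markers of stroma, immune cells, endothelium, skeletal muscle and neurons each summed to at most 19.0 CPM. Of these 31 markers of other cell types 13 were tested under HIF2, and 0 were called higher and 3 lower, all under 3 CPM on average: Ptprc (log2 fold change -3.92, adjusted p = 0.00472, edgeR), Ttn (-1.41, adjusted p = 0.00388) and Snap25 (-1.48, adjusted p = 0.0233). Their part in the members' values was not tested. Duodenal markers were present except for 1 of 5 at 0, while the 6 stem cell markers summed to only 4.14 to 13.1 CPM, of which 3 were tested under HIF2: Sox9 was lower (log2 fold change -1.63, adjusted p = 0.0023, edgeR), while Lgr5 and Axin2, both under 1 CPM on average, were at 1.84 (adjusted p = 0.0714) and 1.02 (adjusted p = 0.253). One library stood apart, Ad-hHIF1 replicate 3, where Gm10800 and Gm26870, 2 predicted genes, drew 16% of all counts, against 0.433 to 4.28% in the other 8. The members' HIF1 estimates are given with and without it. In these bulk samples more cells that express a gene and more RNA per cell cannot be told apart.

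In Ad-hHIF2 organoids all 8 members were called higher than in Ad-GFP, by 5.49-fold (Dixdc1) to 21.4-fold (Chrna1), where a call needs an adjusted p under 0.05 in edgeR's quasi-likelihood test and at least a 2-fold change. Of 14987 genes tested, 2.90% were called higher and 3.83% lower, and this contrast chose the members, so nothing is read from their count. In each of the 8 genes the lowest Ad-hHIF2 value exceeded the highest value of both other groups. Over all genes tested, this held in 19.6%, and the lowest Ad-hHIF2 value exceeded the highest Ad-GFP value in 26.8%. Ordered by p among the genes that increased, 7 members were among the first 12, from rank 3 (Cd109) to rank 12 (Tmco4). Just outside stood Pthlh, at rank 13 with a log2 fold change of 6.06 (SE 0.195). Klhl3 did not share this certainty. It held rank 807, its counts in Ad-GFP were only 3 to 10, and its call was lost in 3 of 15 alternatives. All 8 members passed the filter on low counts in each comparison, but Klhl3 did so only through the HIF samples, with 1 of 3 Ad-GFP samples over the limit.

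**Figure D1:**
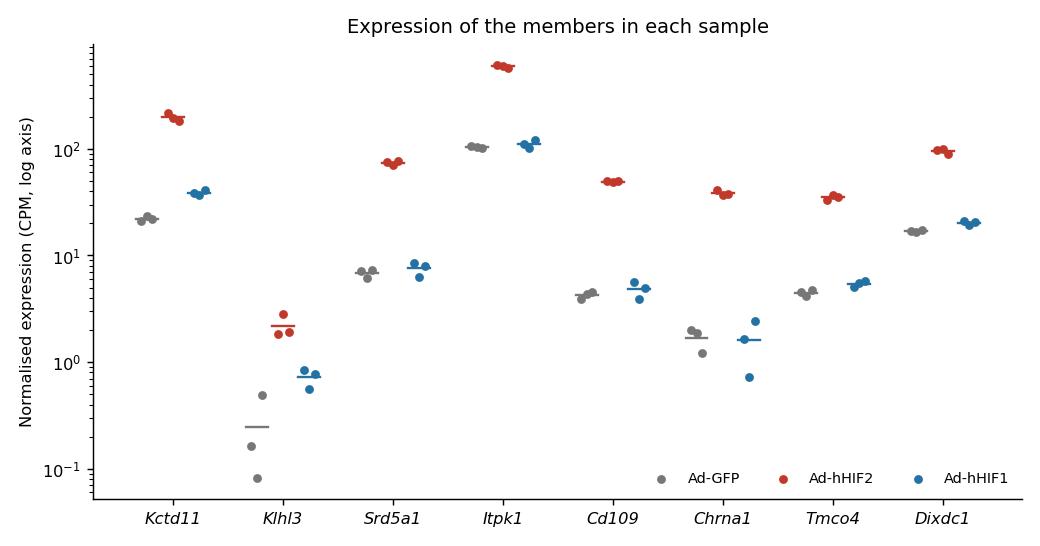
Normalised expression (CPM, log axis) of each member in every sample. Points are the 3 samples of Ad-GFP (grey), Ad-hHIF2 (red) and Ad-hHIF1 (blue), and short lines are group means. The Ad-hHIF2 points lie above all others for each gene, and Klhl3 reaches 1.85 to 2.82 CPM under Ad-hHIF2.

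Among the CUL3 adaptors, Kctd11 was measured at 21, 23.4 and 22 CPM in Ad-GFP replicates 1, 3 and 4, at 215, 194 and 183 CPM in Ad-hHIF2, and at 38.2, 37.1 and 40.8 CPM in Ad-hHIF1. The 3 groups did not overlap, and Ad-hHIF1 lay between the other two. Its log2 fold change under HIF2 was 3.11 (SE 0.0927). The gene (ENSMUSG00000046731) is a single 3146-base unit at chr11:69878261-69881406 on the minus strand of GRCm38, as annotated by GENCODE M21.

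Klhl3 (ENSMUSG00000014164, chr13:58000228-58113592, minus strand) was barely detected, at 0.163, 0.0814 and 0.488 CPM in Ad-GFP, 1.85, 2.82 and 1.91 CPM in Ad-hHIF2 and 0.847, 0.556 and 0.781 CPM in Ad-hHIF1. These values rest on 3 to 10, 58 to 140 and 13 to 30 counts per sample. The order of the groups was the same as for Kctd11, without overlap, but the spread was wide. The coefficient of variation was 88.2% in Ad-GFP and 24.8% in Ad-hHIF2. The log2 fold change under HIF2 was 3.28 with an SE of 0.557, the least precise of the 8.

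Of the enzymes, Srd5a1 (ENSMUSG00000021594, chr13:69573449-69611442, minus strand) reached 75.3, 70.6 and 76.3 CPM in Ad-hHIF2, compared to 7.13, 6.10 and 7.32 CPM in Ad-GFP and 8.47, 6.28 and 7.92 CPM in Ad-hHIF1. The values of Ad-GFP and Ad-hHIF1 overlapped. Its log2 fold change under HIF2 was 3.39 (SE 0.0926). RSEM gave Srd5a1 fractional counts in all 9 samples, so a part of its reads was shared with other features, and the same held for Chrna1 in 8 samples and for Klhl3 in 1.

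Itpk1 (ENSMUSG00000057963, chr12:102568582-102704930, minus strand) was already well expressed in the control. It was measured at 107, 105 and 101 CPM in Ad-GFP, 616, 594 and 575 CPM in Ad-hHIF2 and 111, 101 and 121 CPM in Ad-hHIF1. Replicates of Ad-hHIF2 had a coefficient of variation of 3.41%, and the 2 other groups overlapped. The log2 fold change under HIF2 was 2.46 (SE 0.0773).

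At the cell surface, Cd109 (ENSMUSG00000046186, chr9:78615546-78716253, plus strand) had the smallest relative spread of the members within Ad-hHIF2. Its Ad-hHIF2 samples read 49.7, 48.8 and 49.5 CPM, a coefficient of variation of 0.884%, against 3.87, 4.39 and 4.59 CPM in Ad-GFP and 5.67, 3.89 and 4.90 CPM in Ad-hHIF1. Ad-GFP and Ad-hHIF1 overlapped. The log2 fold change under HIF2 was 3.49 (SE 0.0887), measured in a medium that held a TGF-beta receptor kinase inhibitor in all groups.

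Chrna1 (ENSMUSG00000027107, chr2:73563215-73580338, minus strand) had the largest fold change of the members. It rose from 1.98, 1.87 and 1.22 CPM in Ad-GFP to 40.8, 37.3 and 37.7 CPM in Ad-hHIF2, and was at 1.66, 0.727 and 2.42 CPM in Ad-hHIF1. Here the Ad-hHIF1 values spanned those of Ad-GFP. The log2 fold change under HIF2 was 4.42 (SE 0.139). The skeletal muscle markers, which mark the tissue where the receptor is best known, summed to 2.87 to 4.37 CPM in Ad-GFP and 1.08 to 1.51 CPM in Ad-hHIF2, with 2 of the 7 at 0 in every sample.

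Tmco4 (ENSMUSG00000041143, chr4:138972888-139059171, plus strand) was measured at 4.52, 4.18 and 4.73 CPM in Ad-GFP, 33.1, 37.3 and 35.5 CPM in Ad-hHIF2 and 5.02, 5.51 and 5.78 CPM in Ad-hHIF1. The lowest Ad-hHIF1 value was just above the highest of Ad-GFP. The log2 fold change under HIF2 was 2.94 (SE 0.0928).

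Dixdc1 (ENSMUSG00000032064, chr9:50662752-50739517, minus strand) was measured at 16.8, 16.5 and 17.2 CPM in Ad-GFP, 97.2, 99.1 and 89.6 CPM in Ad-hHIF2 and 21.1, 19.4 and 20.5 CPM in Ad-hHIF1. It too had 3 groups without overlap. The log2 fold change under HIF2 was 2.46 (SE 0.0738).

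The stated reason for choosing the members was their increase under HIF2 over Ad-GFP, the group to which Ad-hHIF1 is compared here. Ad-hHIF1 values were not named in it, but earlier results of these data were known. In the contrast of Ad-hHIF1 with Ad-GFP, 0 of 15233 genes (0%) were called by edgeR, with 1308 (8.59%) at an unadjusted p under 0.05, and DESeq2 called 1 gene, Sprr1a, and limma none. The edgeR test called 138 genes without a count filter and 2 with all 9 samples in the fit. No member was called by edgeR, DESeq2 or limma in any of these settings. The lowest Ad-hHIF1 value exceeded the highest Ad-GFP value in 10% of all genes tested, and in 3 of the 7 members other than Klhl3: Kctd11, Tmco4 and Dixdc1. It did so in Klhl3 too, which is not counted because it passed the filter only through the Ad-hHIF1 samples. The median log2 fold change of the 7 was 0.15, against 0.00 over all genes tested. Both comparisons share the same Ad-GFP samples.

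Kctd11 gave the clearest HIF1 value. Its log2 fold change was 0.78 (SE 0.0770), a 1.72-fold higher level with a 95% interval from 1.52 to 1.94, in 3 of 3 samples. By unadjusted p (8.04e-06) it ranked 1 of 15233 genes, and its adjusted p in edgeR's quasi-likelihood test was 0.0789, over the threshold of 0.05. Across the alternatives the adjusted p ranged from 4.24e-10 to 0.641 and was under the threshold in 3 of 15, DESeq2 among them. Without Ad-hHIF1 replicate 3 the log2 fold change was 0.79 and the adjusted p 0.0717.

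Dixdc1 was next in precision, with a log2 fold change under HIF1 of 0.25 (SE 0.0777, adjusted p = 0.501, edgeR) and a 95% interval from 0.07 to 0.43. Klhl3 had the largest estimate, 1.63, and an SE of 0.716 (adjusted p = 0.584, edgeR). Its interval, from -0.02 to 3.29, covered both no change and the value seen under HIF2, and the estimate was 2.53 without Ad-GFP replicate 4 and 1.17 without Ad-GFP replicate 3. Tmco4 had 0.26, with an interval from -0.11 to 0.62. For Srd5a1, Cd109 and Itpk1 the estimates were 0.12, 0.15 and 0.06, and the upper ends of their intervals were 0.48, 0.59 and 0.25. Chrna1 was at -0.10 (interval from -1.13 to 0.93). Without Ad-hHIF1 replicate 3 the estimates were 0.27 for Dixdc1, 1.79 for Klhl3, 0.23 for Tmco4, 0.22 for Srd5a1, 0.27 for Cd109, 0.12 for Itpk1 and 0.22 for Chrna1, and none was called. Except for Klhl3, the upper ends of the intervals from all samples lay below the lower ends of the HIF2 intervals of the same genes.

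**Figure D2:**
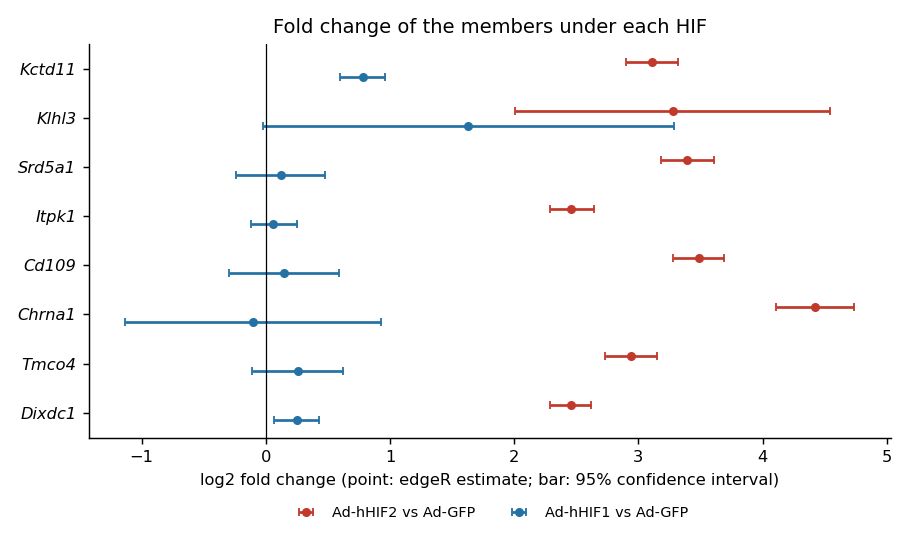
Log2 fold change of each member against Ad-GFP, under HIF2 (red) and HIF1 (blue). Points are edgeR estimates and bars 95% confidence intervals from 3 samples per group. Only for Klhl3 do the 2 intervals overlap, and for Kctd11 the HIF1 interval runs from 0.60 to 0.96.

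Compared directly over all 9 samples, all 8 members were called higher in Ad-hHIF2 than in Ad-hHIF1, where 2.42% of 15556 genes were. The log2 differences ran from 1.55 (Klhl3, SE 0.490) to 4.51 (Chrna1, SE 0.284). The call of Klhl3 was lost in 11 of 18 alternatives, among them 7 of the 9 that left out a sample (Ad-GFP replicate 1 and each HIF sample), where its difference ran from 1.32 to 1.67. The other 7 members kept theirs in all 18. Again the Ad-hHIF2 samples chose the members, so this is a description. The median of reads assigned to Epas1 was 665 CPM in Ad-hHIF2 and 1.63 in Ad-GFP. For Hif1a it was 310 CPM in Ad-hHIF1 and 206 in Ad-GFP. The kind of HIF and its amount therefore cannot be told apart, here or in the HIF1 estimates. For Kctd11 the difference was 2.32 (SE 0.0847) and for Dixdc1 2.20 (SE 0.0665).

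Between genes, levels can be compared only per length. Expressed as CPM per kilobase of effective length, the members started at different heights in Ad-GFP: Itpk1 at the 92.3rd percentile of 12810 protein-coding genes, Kctd11 at 62.0, Dixdc1 at 49.0, Srd5a1 at 36.7, Tmco4 at 26.9, Cd109 at 17.9, Chrna1 at 11.5 and Klhl3 at 1.96. In Ad-hHIF2 the mean levels per kilobase were 215 ± 7.41 for Itpk1, 65.6 ± 5.40 for Kctd11, 30 ± 1.06 for Srd5a1, 22.1 ± 0.717 for Dixdc1, 13.0 ± 0.867 for Tmco4, 9.08 ± 0.448 for Chrna1, 8.81 ± 0.0591 for Cd109 and 0.741 ± 0.170 for Klhl3 (SD, n = 3). Neighbours in the Ad-hHIF2 order were further apart than their spread except for Chrna1 and Cd109. Srd5a1 passed Dixdc1, and Chrna1, 1 of the lowest in Ad-GFP, reached the 65.9th percentile. Klhl3 came to the 17.3rd. In Ad-GFP the levels per kilobase ran from 38.0 ± 1.42 (Itpk1) and 7.37 ± 0.399 (Kctd11) down to 0.398 ± 0.0969 (Chrna1) and 0.0899 ± 0.0677 (Klhl3), all neighbours apart by more than their spread. In Ad-hHIF1 the order was that of Ad-GFP, from 40.2 ± 3.53 for Itpk1 and 12.9 ± 0.557 for Kctd11 to 0.378 ± 0.199 for Chrna1 and 0.242 ± 0.0498 for Klhl3, and the last pair did not differ beyond its spread.

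**Figure D3:**
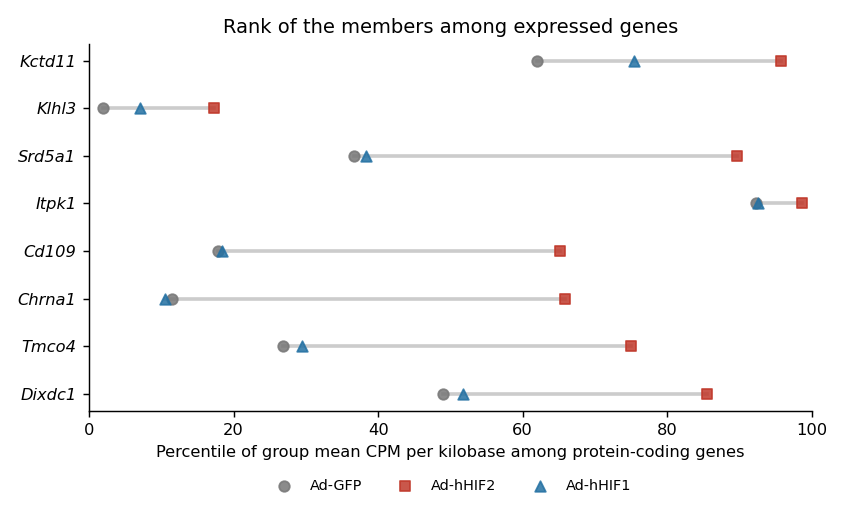
Percentile of each member's mean CPM per kilobase among 12810 protein-coding genes, in Ad-GFP (circle), Ad-hHIF2 (square) and Ad-hHIF1 (triangle). Kctd11 moves from 62.0 to 95.8 under HIF2 and to 75.4 under HIF1, and Itpk1, already at 92.3, to 98.7.

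The deposited gene length, which RSEM averages over transcripts by their share, moves when the mix of transcripts does. It was the same in all samples for Kctd11 and Chrna1, which have 1 annotated transcript each. For Dixdc1, with 12 annotated transcripts, the length was 4299, 3872 and 3449 bases in Ad-GFP, 4399, 4770 and 4206 in Ad-hHIF2 and 4323, 3676 and 4380 in Ad-hHIF1. The groups overlapped. Its 6 coding transcripts range from 989 to 5719 bases, and the length does not tell which of them carried the reads. For Cd109 the length corresponds to a share of a 1403-base retained-intron transcript of 2.49 to 3.09% in Ad-hHIF2, while in the other groups, at few reads, it was 0 to 14.6%. For Srd5a1 the length was that of the 2644-base coding transcript in the other 6 samples and 2622, 2595 and 2612 bases in Ad-hHIF2, so a small part of the reads there was assigned to the shorter transcripts of 888 or 742 bases, which the length alone cannot tell apart. Those 6 samples held only 147 to 304 expected counts of Srd5a1, against 2321 to 3511 in Ad-hHIF2, and so small a part was hardly detectable there.

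The genes next to the members were compared as well, a comparison added after the data were seen. Each member has 2 flanking protein-coding genes, 16 in all, of which 6 were called higher in Ad-hHIF2 (37.5%), 6 were tested and not called and 4 were too low to test. With at least 10 counts asked of every sample 5 were called, since Tmem95, high enough only in Ad-hHIF2, dropped out. Counted in the same way over all flanking genes, 76 of 793 (9.58%) were called higher beside the other 398 protein-coding genes called higher, 7.86% beside the 70 of these whose fold change was at least that of the weakest member, and 2.28% beside all 12508 protein-coding genes tested. The 6 were Acap1 and Tmem95 (both next to Kctd11), Rnf186 and Htr6 (both next to Tmco4), 2310030G06Rik (Dixdc1) and Col12a1 (Cd109). Of the 7 flanking genes within 5000 bases of a member, a limit set after seeing the values, 5 were called, Tmem95 included, and Chga, 3554 bases from Itpk1, was too low to test. Beside the other genes called higher it was 14 of 128 (10.9%). It was 2 of 20 (10%) beside the 70 with the larger fold changes, and 98 of 7492 (1.31%) beside all protein-coding genes tested.

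Beside Kctd11, Acap1, a GTPase-activating protein of membrane traffic, ends 161 bases upstream on the same strand and had a log2 fold change of 1.63 (SE 0.149, adjusted p = 0.000118, edgeR). It was at 4.04 CPM in Ad-GFP, 12.8 in Ad-hHIF2 and 3.29 in Ad-hHIF1, with a HIF1 log2 fold change of -0.32 (adjusted p = 0.766, edgeR). Tmem95, 243 bases past the other end, was near zero, with 4 counts over the Ad-GFP samples and 62 over Ad-hHIF2, an 11.8-fold ratio with a 95% counting interval from 4.4 to 44.8. On both sides of Tmco4, Rnf186, a RING finger ubiquitin ligase 4528 bases upstream, had 1.69 (SE 0.225, adjusted p = 0.000888, edgeR) and Htr6, a serotonin receptor 1937 bases downstream on the opposite strand, had 1.93 (SE 0.265, adjusted p = 0.00100). 2310030G06Rik, 174 bases upstream of Dixdc1, had 1.27 (SE 0.244, adjusted p = 0.0054). These 5 genes thus lay within 5000 bases of Kctd11, Tmco4 or Dixdc1. Col12a1, a collagen gene that rose by 3.00 (SE 0.143, adjusted p = 2.89e-06), lies 882738 bases from Cd109. Dlat, 2972 bases from Dixdc1, was at 0.17 (adjusted p = 0.161).

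Within the members' own spans, Gm17108 in Srd5a1 and Gm37019 and Gm28373 in Itpk1, all on the same strand and none annotated as protein-coding, had log2 fold changes of 1.77, 1.78 and 2.61. Nsun2, an RNA methyltransferase that overlaps Srd5a1 on the opposite strand, was at -0.49 (adjusted p = 0.00152, edgeR), short of 2-fold. Strand-specific counting is not stated, so reads of overlapping genes on either strand cannot be told apart, and whether reads of a member ran into its neighbour was not tested.

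**Figure D4:**
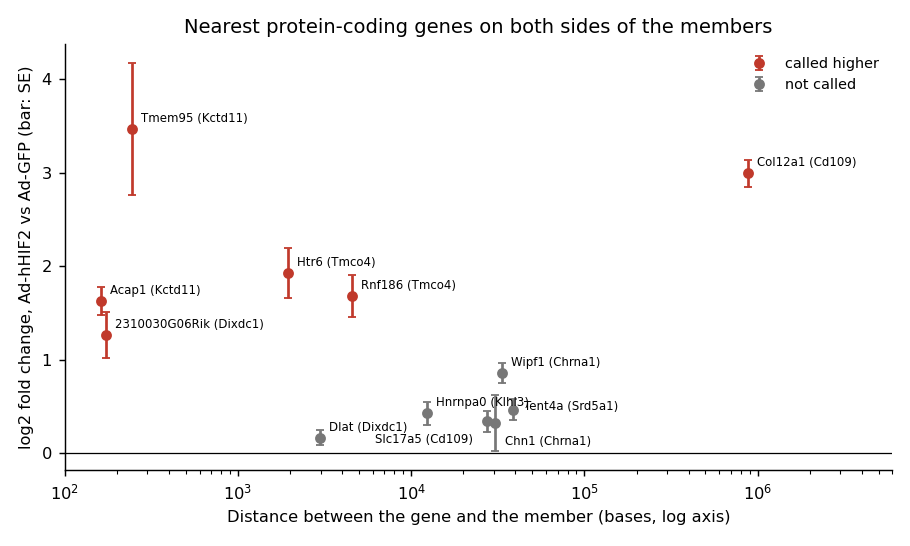
Log2 fold change in Ad-hHIF2 against Ad-GFP of the 12 tested protein-coding genes next to the members, by distance in bases (log axis), each named with its member in brackets. Bars are standard errors. Of the 6 tested genes within 5000 bases, 5 are called higher (red), and of the 6 farther away only Col12a1.

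Few other genes of the members' pathways were called. In 8 lists of 133 genes beside the members, 87 were tested under HIF2, and 3 were called higher (3.45%) and 0 lower, with a median log2 fold change of 0.16 against -0.01 over all genes tested. The share is near the 2.90% of all genes. The 3 were Smad7, Impa2 and Plcb1, of which Plcb1 lost its call in 6 of 15 alternatives (without Ad-GFP replicate 1, Ad-hHIF2 replicate 3 or Ad-hHIF2 replicate 4 among them) and the others in 1. Under HIF1, 0 of 88 were called.

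Of the CUL3 adaptors, WNK kinases and their transporters, 0 of 15 tested were called, with log2 fold changes from -1.22 to 0.50. Wnk1, the gene of the list with the highest mean TPM, was at 0.29 (adjusted p = 0.0542), and Cul3 itself at 0.21. None of 9 Hedgehog pathway genes was called either, although Sufu, an inhibitor of the pathway, was at 0.73 (adjusted p = 0.000903, edgeR), short of 2-fold. Of the pathway's targets Ptch1 was at 0.19 (adjusted p = 0.113), and Gli1 and Hhip were too low to test. Hdac2, the highest of the list by mean TPM, was at -0.14 (adjusted p = 0.213).

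Around Cd109, 1 of 14 tested genes was called in a list of TGF-beta ligands, receptors and SMAD proteins and the alpha-2-macroglobulin family, which holds the complement genes C3 and C4b. Smad7, which inhibits TGF-beta receptors, increased from 37.2 to 89.6 CPM, a log2 fold change of 1.22 (SE 0.0771, adjusted p = 1.42e-05, edgeR), and was at -0.19 under HIF1. The receptors themselves were at -0.69 (Tgfbr1) and 0.32 (Tgfbr2), and Smad4 at 0.04.

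Most of the steroid pathway around Srd5a1 was too low to test. Of 21 other genes of steroid metabolism and steroid receptors, 6 had enough counts, and 4 were at 0 in all samples, its isoenzyme Srd5a2 and the aromatase Cyp19a1 among them. Nr3c1, the glucocorticoid receptor, was at 92.4 ± 1.66 CPM in Ad-hHIF2 and 51.9 ± 4.77 in Ad-GFP (SD, n = 3), a difference of 0.79 on the log2 scale (adjusted p = 0.000223, edgeR) that stayed short of 2-fold.

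The other subunits of the Chrna1 receptor were low or not called. The muscle receptor also needs beta, delta and gamma or epsilon subunits. Chrnb1 was at 12.2 ± 1.2 CPM in Ad-GFP and 14.8 ± 1.71 in Ad-hHIF2 (log2 fold change 0.23, adjusted p = 0.195, edgeR), Chrnd was at 0 in all 9 samples, and the means of Chrng and Chrne were at most 0.125 CPM in every group. The means of the clustering protein Rapsn and the kinase Musk were at most 0.169 CPM. Only 3 of the 18 other genes on the list could be tested.

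For Itpk1, 2 of 25 tested genes of inositol phosphate metabolism were called higher. Impa2, an inositol monophosphatase, was at 29.2 ± 3.00 CPM in Ad-GFP, 137 ± 6.68 in Ad-hHIF2 and 38.4 ± 4.50 in Ad-hHIF1 (SD, n = 3), a log2 fold change of 2.18 under HIF2 (SE 0.0906, adjusted p = 1.26e-06, edgeR) and of 0.37 under HIF1 (adjusted p = 0.491). Plcb1, a phospholipase, was low, with a log2 fold change of 1.75 (SE 0.427, adjusted p = 0.0157, edgeR).

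None of 12 DIX domain and beta-catenin genes was called beside Dixdc1. Ctnnb1, the gene of beta-catenin, was at 0.67 (adjusted p = 0.000428, edgeR) and Ccdc88c, another DIX domain gene, at -0.79 (adjusted p = 0.00363), both short of 2-fold, and Axin2, a target of Wnt signalling, was at 1.02 (adjusted p = 0.253). Of 3 tested genes that share the TMCO name with Tmco4 none was called, and Tmco1, the highest by mean TPM, was at -0.43 (adjusted p = 0.0512, edgeR).

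Set beside the members, 63 textbook HIF targets were tested under HIF2, of which 11 were called higher and 10 lower, with a median of -0.15. Angptl4 (3.10) and Ppp1r3c (2.66) were within the range of the members, and Ankrd37 followed at 2.32. Hmox1 fell by 1.99 and Slc2a3, the glucose transporter GLUT3, was at -1.74. Gapdh, the highest of this list by mean TPM, was at -0.57.

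**Figure D5:**
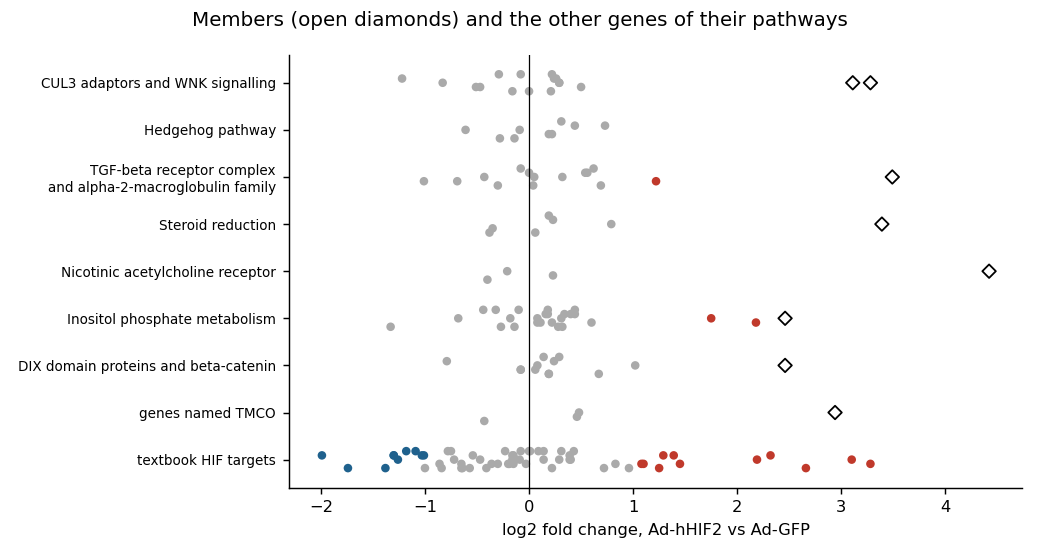
Log2 fold change in Ad-hHIF2 against Ad-GFP of the members (open diamonds) and of the other tested genes in each pathway list, with calls higher in red, calls lower in blue and the rest in grey. Points are spread vertically for legibility. The members sit at 2.46 to 4.42, to the right of the other genes of their lists, of which 3 in 87 are red.

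By Pearson correlation of log2(CPM + 0.5) over the 9 samples, the genes with the most similar pattern were named for each member among 12382 genes. The samples fall into 2 clusters, high in Ad-hHIF2 and low elsewhere, so any gene with this step correlates strongly, and the values only describe the likeness. Cd109 and Srd5a1 were close to each other (r = 0.9982). Angptl4, the lipoprotein lipase inhibitor, was among the 3 nearest genes of Cd109, Tmco4 and Dixdc1, and Igfbp3, a binding protein of insulin-like growth factors, among those of Srd5a1, Tmco4 and Itpk1. Itpk1 was nearest to the laminin gene Lamb1 (r = 0.9994). Chrna1 was nearest to Diras2, at 0.670, 21.8 and 0.769 CPM in Ad-GFP, Ad-hHIF2 and Ad-hHIF1. Kctd11, with its middle level under HIF1, was nearest to Arhgap29, Ndrg1 and Nos2, whose log2 fold changes under HIF1 were 0.50, 0.24 and 1.17 beside 2.17, 1.10 and 4.43 under HIF2. Klhl3 had the lowest coefficients (0.9849 for Ranbp2), with genes that changed by only 0.33 or less.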

How the data were processed

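RNA from 3 Ad-GFP, 3 Ad-hHIF2 and 3 Ad-hHIF1 samples of duodenal organoids was sequenced by the authors, who discarded reads of low quality and estimated transcript abundance by RSEM. Strandedness, RSEM version and annotation are not given in the sources used here. The deposited files hold RSEM expected counts, TPM values and transcript-weighted gene lengths (in bases, as the authors' RSEM run wrote them). TPM values as deposited depend on 3 short RNAs that took 22.7 to 26.4% of them, and were used only in alternatives and to rank listed genes. Expected counts (85.7% exactly whole as deposited, zeros included, and 68.7% of those above 0) were rounded and tested with edgeR 4.0.16 (R 4.3.3: filterByExpr, TMM, glmQLFit and glmQLFTest), in the 6 samples of each contrast with Ad-GFP and in all 9 for Ad-hHIF2 against Ad-hHIF1, with Benjamini-Hochberg adjustment over all genes tested. A call needed an adjusted p under 0.05 and at least 2-fold. The authors used EBSeq, which was not run.

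The members, the pathway lists and the tests were chosen with earlier results of these data known. Named genes were the 8 members, in each list up to 4 called genes and the one with the highest mean TPM, the 3 most correlated genes per member (a few genes that the rule names are not reported here), markers, Epas1, Hif1a, Gm10800 and Gm26870. Others (flanking genes, Sprr1a, subunits and pathway genes named for their role) were chosen after their values were seen. CPM per kilobase used RSEM's effective length. Promoter windows came from RefSeq (GRCm38.p6) and gene positions from GENCODE M21 (GRCm38). The build of the authors' run is not stated, and the members' deposited lengths fit GENCODE M21 transcripts except for Klhl3 (3156 bases, against 7149 for its coding transcript). Alternatives were other count filters, median-ratio size factors, DESeq2 1.42.0, limma 3.58.1 on log2(TPM + 1) and log2(TPM + 0.1), other samples in the fit, a replicate block, each sample left out, and Gm10800 and Gm26870 left out of library sizes.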

Additional observations from a re-analysis of the deposited data

How the results depend on the processing

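Under HIF2 the 8 members had the same direction in every alternative run, and 7 or 8 were called in all but limma on log2(TPM + 1), which called 0 members, 0 genes higher and 3 lower, and 0 partner and 0 flanking genes. Its log2 fold changes were 2.67 for Itpk1, 2.62 for Kctd11, 2.15 for Srd5a1, 1.57 for Dixdc1, 1.39 for Tmco4, 1.26 for Chrna1, 1.17 for Cd109 and 0.15 for Klhl3. On that scale Ad-hHIF2 replicate 1 read 1.43 to 2.09 times the TPM of the other Ad-hHIF2 samples for the members. The cause was not tested. Against Ad-hHIF1 it called 89 genes higher and 6 lower. Genes lower under HIF2 numbered 574, but 28 with limma on log2(TPM + 0.1), 379 with all 9 samples in the fit and 381 to 546 with each sample left out (381 without Ad-hHIF2 replicate 3), and 575 against Ad-hHIF1, but 51 with limma on log2(TPM + 0.1) and 262 to 766 with each sample left out. The lowest of these was without Ad-hHIF2 replicate 1. It was 295 without Ad-hHIF2 replicate 3, 380 without Ad-hHIF2 replicate 4 and 338 without Ad-hHIF1 replicate 3. Partner genes called higher numbered 2 to 4 in the alternatives other than limma on log2(TPM + 1), with Wnk2 gained without a count filter and without Ad-hHIF2 replicate 3. Partner genes called lower were 2 (Pzp and Pgr) without a count filter and 0 to 1 with each sample left out (Kctd6 without Ad-GFP replicate 1, Itpka without Ad-GFP replicate 4). Between Ad-hHIF1 and Ad-GFP, 138 genes were called without a count filter, 1 of them a partner gene (Tmco1), 1 by DESeq2 and 2 with all 9 samples in the fit (Nos2 and Sprr1a). Kctd11 under HIF1 had an adjusted p of 2.37e-09 without a count filter, 4.24e-10 with DESeq2 and 0.0123 with all 9 samples in the fit. Chrna1 under HIF1 changed sign with limma on log2(TPM + 1) (0.00) and log2(TPM + 0.1) (0.02), and without Ad-GFP replicate 1 (0.02) or Ad-hHIF1 replicate 3 (0.22), and ran from -0.51 to 0.22 with each sample left out. Klhl3 lost its call under HIF2 in 3 of 15 alternatives: it was left out where at least 10 counts were asked of every sample, and was at 0.99 with limma on log2(TPM + 0.1) beside the 0.15 above. Its log2 fold change under HIF2 ran from 2.81 to 4.10 with each sample left out (4.10 without Ad-GFP replicate 4).

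Sample numbers were not taken to pair the samples, since no contrast had all 3 same-numbered correlations over 0.1. The correlation of same-numbered samples' deviations was 0.0848 to 0.215 between Ad-hHIF2 and Ad-GFP (-0.214 to 0.134 for other numbers), -0.132 to 0.153 between Ad-hHIF1 and Ad-GFP (-0.301 to 0.269) and -0.251 to -0.0894 between the HIFs (-0.122 to 0.233). With the replicate block 437 genes were higher and 599 lower under HIF2, 0 were called under HIF1, and 374 were higher and 446 lower against Ad-hHIF1. The block kept all 8 member calls under HIF2 and, with Klhl3 lost, 7 against Ad-hHIF1.

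Depth limits Klhl3 and Tmem95, at a few counts in Ad-GFP, and the transcript shares outside Ad-hHIF2. With 3 samples a group an exact permutation test of 1 gene could not go below p = 0.10. p-values reflect the spread between these cultures of 1 strain only.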
